A study of Bos taurus with 15 samples.

Results

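The 16-cell bovine embryo was set against the morula, the stage that follows it, across all transcripts measured. The comparison used 4 of the 15 arrays of the series, 1 titled with the 16-cell stage and 3 titled with the morula stage, and was chosen by those titles alone. Each Affymetrix Bovine Genome array reports an intensity, called signal here and given on a linear scale, and 24016 probe sets were used. Both groups were bovine (Bos taurus) embryos made in vitro by the same protocol and otherwise untreated. Oocytes from ovarian follicles were matured with LH, FSH and fetal calf serum, fertilised with separated sperm, freed of cumulus cells by vortexing and grown in SOF medium with albumin and amino acids. The labels do not say how many embryos went into an array, and no strain is given. RNA was amplified in 3 rounds before labelling. The labels call the morula arrays biological replicates, and the 16-cell stage has none. In whole embryos, fewer cells of a type and less RNA per cell cannot be told apart.

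Between these stages the blastomeres of a cattle embryo flatten against each other, form the first tight and adherens junctions, and become polarised outer and inner cells. The outer cells are on the way to the trophectoderm, a pumping epithelium that carries keratin filaments. Cattle embryos switch on most of their own transcription around the 8-cell to 16-cell stage, while transcripts stored in the oocyte are cleared.

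KRT18 and GJB5, genes of the first epithelium, were bright in all 3 morulae and dim in the 16-cell array. Both are among the largest differences described below, so they are no separate check on the stages. Of other genes of this epithelium, CLDN4 followed them, but KRT8 and AQP3 did not. KRT8 had 40.5 in the 16-cell array, against 142, 46.4 and 22.8 in the morula arrays. AQP3 was bright at both stages, with 5799 in the 16-cell array, against 10833, 9382 and 7164 in the morula arrays. No gene was used as a defining marker of the 16-cell stage. Morula 3 stood apart from morulae 1 and 2: it differed by 4-fold or more at 2609 and 2347 probe sets, against 47 between morulae 1 and 2. The 16-cell array differed by 4-fold or more at 3456, 3373 and 3846 probe sets when set against morulae 1, 2 and 3. Control transcripts that are added to RNA before amplification summed to a signal of 22351 in the 16-cell array, against 94.2, 337 and 20846 in morulae 1, 2 and 3, so they were bright on the 16-cell array and morula 3 and dim on the other morulae. Whether they are bright or dim is called the spike-in class of an array below. The ratio of the middle to the 3′ control probe set of GAPDH, a measure of how far amplified RNA reaches from its 3′ end, was 0.134 in the 16-cell array, against 0.625, 0.367 and 0.100 in the morula arrays. For cyclophilin it was 0.475 in the 16-cell array, against 0.273, 0.322 and 0.178 in the morula arrays. For EIF4E it was 0.0853 in the 16-cell array, against 0.0636, 0.0842 and 0.887 in the morula arrays, so that morula 3 was the lowest morula in 2 of these ratios and the highest in the other. The part of these differences in the results below was not tested, so list counts are given with all 3 morulae and with morulae 1 and 2 alone.

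Differences are 16-cell minus morula mean on log2(signal + 16), so that positive values are higher at the 16-cell stage, and low signals give understated folds. A gene was called beyond the morula range where its difference exceeded the range of the 3 morula arrays and was at least 2-fold. By this description 1259 of 9155 genes (13.8%) were higher in the 16-cell array and 990 (10.8%) were lower. With morulae 1 and 2 alone the counts were 1625 (17.7%) and 1692 (18.5%). Over all 24016 probe sets, named or not, 2748 (11.4%) were higher and 2027 (8.44%) lower. The median difference over all genes was 0.03. The range call is no test, since an array that differs only by chance also often falls outside the range of 3 others. By its rule, every gene called has its 16-cell value outside the span of the 3 morulae. Statements below that a called gene lay above or below every morula therefore add nothing to the call. A second, stricter call came from a limma fit to all 15 arrays, in which the lone 16-cell array was assumed to vary as much as the replicated stages. At an adjusted p of 0.05 it called 337 genes (3.68%) higher and 199 (2.17%) lower, and of these 332 and 199 were also beyond the morula range. Over probe sets it called 844 (3.51%) higher and 385 (1.6%) lower. Leaving out morula 1, 2 or 3 moved these counts to 232, 223 and 367 genes higher and to 108, 104 and 284 lower. Fitted to the 4 arrays alone, limma called no probe set after adjustment, with 3853 at an unadjusted p under 0.05. Genes called by the fit to all 15 arrays are described below as past the pooled fit. List counts of this fit are to be set against 3.68% higher and 2.17% lower over all genes. Those with morulae 1 and 2 alone are to be set against 17.7% and 18.5%.

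**Figure D1:**
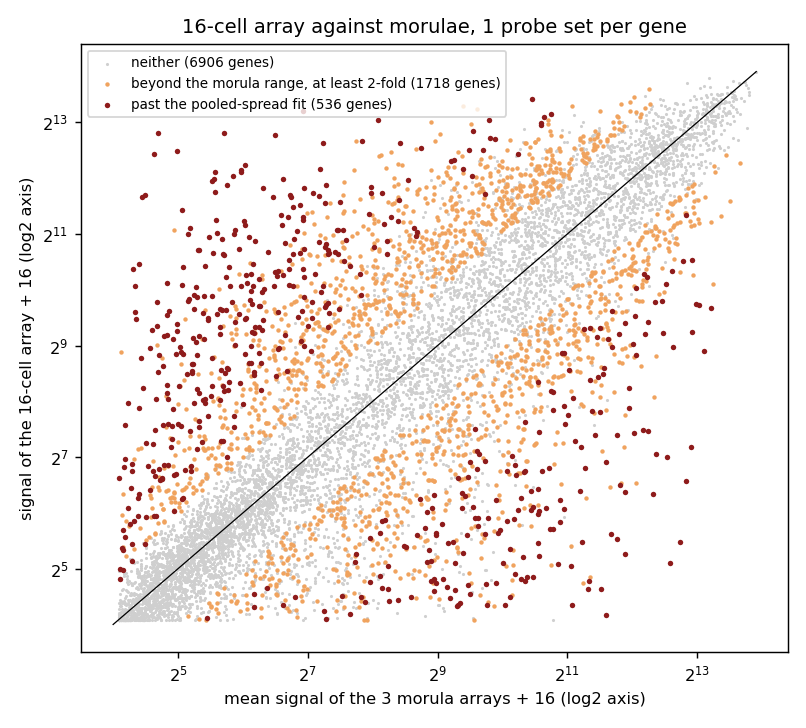
Signal of the 16-cell array (vertical) against the mean signal of the 3 morula arrays (horizontal), both plus 16 on log2 axes, with 1 probe set for each of 9155 genes. Grey points have neither call, orange points are beyond the morula range and at least 2-fold, dark red points are past the pooled fit, and the line marks equal signal; the red points lie on both sides of the line, 337 above it and 199 below.

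The largest differences toward the 16-cell stage were genes that were bright on the 16-cell array and much dimmer in every morula. SFRP2, a secreted Wnt antagonist, had a signal of 7176 in the 16-cell array, against 3.87, 3.64 and 22.2 in the morula arrays. This difference of 8.19 ± 1.28 (SE of the pooled fit, adjusted p = 0.00586) was the largest of any gene under the naming rule. GRO1, a CXC chemokine, had 5520.2 in the 16-cell array, against 5.54, 4.75 and 15.7 in the morula arrays. GNAO1, a G protein alpha subunit, had 5732 in the 16-cell array, against 11.4, 15.9 and 19.4 in the morula arrays. Neither gene's morula arrays came near the 16-cell array, with differences of 7.84 ± 0.73 and 7.52 ± 1.19. GEM, a small GTPase, had 3296 in the 16-cell array, against 2.99, 12.8 and 3.37 in the morula arrays. FHL1, a LIM-domain protein, had 3243 in the 16-cell array, against 9.20, 2.45 and 5.77 in the morula arrays. XCL1, another chemokine, had 4031 in the 16-cell array, against 8.92, 14.3 and 70.3 in the morula arrays. The morula signals of GEM and FHL1 lay at the foot of the scale, where the size of the difference depends on the pseudocount.

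The group also held regulators of the cell cycle. RB1, the retinoblastoma protein that restrains entry into S phase, had 2726 in the 16-cell array, against 8.46, 41.0 and 2.21 in the morula arrays (difference 6.54 ± 0.80, adjusted p = 0.00165). CDKN2C, an inhibitor of the cyclin D kinases, had 4804 in the 16-cell array, against 30.8, 93.2 and 23.4 in the morula arrays (6.36 ± 0.96, adjusted p = 0.00492). ID3, a repressor of helix-loop-helix transcription factors, had 9399 in the 16-cell array, against 104, 148 and 64.3 in the morula arrays (6.34 ± 0.71, adjusted p = 0.00102). None of the 3 genes overlapped between the stages, as the range call requires. The other 6 of the 15 largest were SMARCA1 (6.53), a chromatin remodelling ATPase, ARMC2 (6.52), ADAMTS4 (6.49), a protease of the extracellular matrix, NT5E (6.32), the ecto-nucleotidase CD73, RGS16 (6.21), a regulator of G protein signalling, and EEF2K (6.19), the kinase of elongation factor 2. All 15 were past the pooled fit, but EEF2K (adjusted p = 0.041) was not without morula 1, 2 or 3 (0.0896, 0.0958 and 0.0648), nor with a pseudocount of 1 (0.0693) or quantile normalization (0.0509). Other probe sets of GRO1, NT5E and RGS16 were also past the pooled fit in the same direction, although a dim one of GRO1 had no call. The second probe sets of ARMC2, GNAO1 and EEF2K had differences of 0.28, 0.19 and 0.02 and no call.

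The largest differences the other way were genes bright in every morula and much dimmer on the 16-cell array. AGPAT4, an acyltransferase of phospholipid synthesis, had 18.3 in the 16-cell array, against 6467, 6111 and 5850.0 in the morula arrays (difference -7.49 ± 0.74, adjusted p = 0.000542). GJB5, a gap junction connexin of the trophoblast, had 28.8 in the 16-cell array, against 6645, 6979.6 and 6869 in the morula arrays (-7.26 ± 0.77, adjusted p = 0.000794). KRT18, a filament protein of single-layered epithelia, had 8.75 in the 16-cell array, against 5008, 2145 and 1565 in the morula arrays (-6.70 ± 0.74, adjusted p = 0.000994). The 3 morulae spread over 0.14 and 0.07 on the log2 scale in AGPAT4 and GJB5, and over 1.67 in KRT18. ARRB1, the adaptor beta-arrestin 1, had 4.31 in the 16-cell array, against 1444, 2554 and 2431 in the morula arrays. SLC25A37, the mitochondrial iron importer mitoferrin, had 22.4 in the 16-cell array, against 4078, 3885 and 3399 in the morula arrays. LYN, a Src family kinase, had 11.4 in the 16-cell array, against 3977, 947 and 2762 in the morula arrays. NASP, a histone chaperone, was the brightest of the 15 in the morulae after RELL1, with 78.5 in the 16-cell array, against 6491, 5829 and 9411 in the morula arrays. The rest of the 15 were GATB (-7.28), FITM2 (-6.39), TRIM2 (-6.38), MB21D2 (-6.03), ALDH4A1 (-5.91), NFE2 (-5.90), TSPAN2 (-5.82) and RELL1 (-5.73). Of the 15, 14 were past the pooled fit. TRIM2 was not (adjusted p = 0.051, and 0.0274 with median centring), and GATB (adjusted p = 0.02) was no longer past it without morula 1 (0.0568) or morula 2 (0.0568). Other probe sets of LYN, NASP and RELL1 were dim or had no call.

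**Figure D2:**
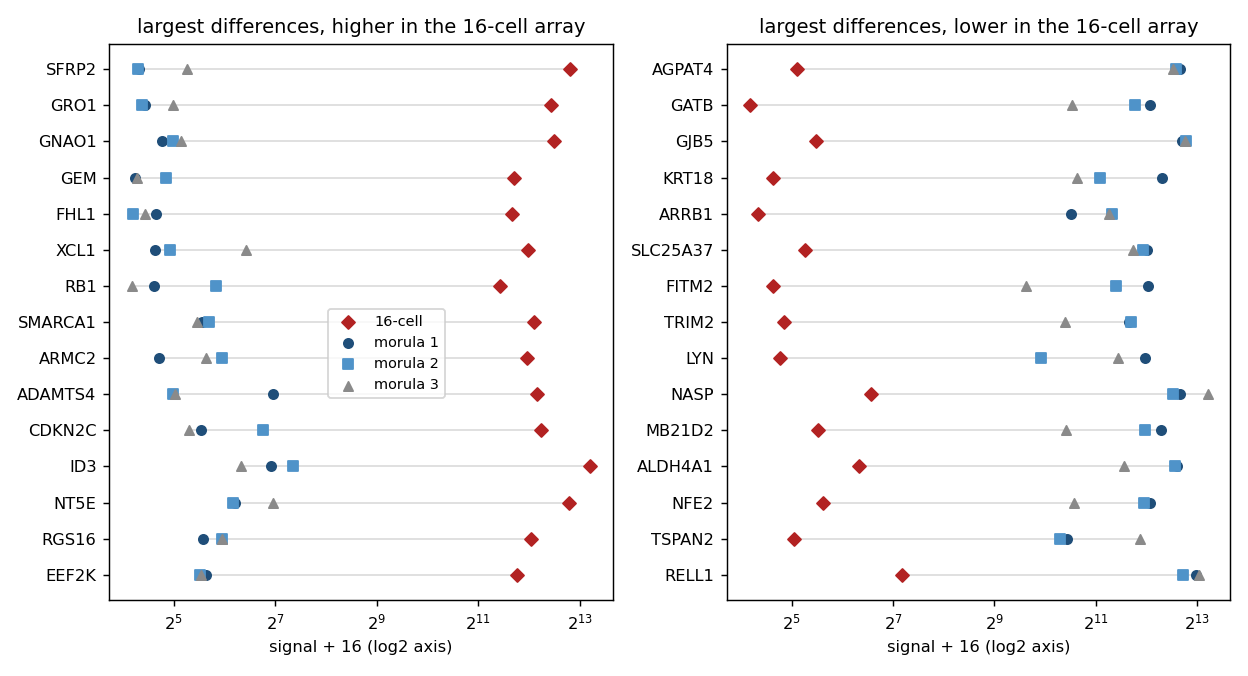
Signal plus 16 (log2 axis) of the 15 genes with the largest difference in each direction, 1 row per gene, with the 16-cell array as a red diamond and morulae 1, 2 and 3 as a dark blue circle, a light blue square and a grey triangle. In every row the 16-cell array lies outside the span of the morulae, as the rule for picking these genes requires. Taken from the morula mean, the difference is 8.19 for SFRP2 at the top left and -7.49 for AGPAT4 at the top right.

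Blastocyst and oocyte arrays, which entered this comparison only through the fit's estimate of spread, gave the genes of each direction a second reading. Of the 337 genes higher in the 16-cell array by the pooled fit, 21 (6.23%) were higher and 128 (38.0%) lower in blastocysts than in oocytes by the same fit. Of the 199 genes lower in the 16-cell array, 119 (59.8%) were higher and 9 (4.52%) lower in blastocysts than in oocytes. Over all genes these shares were 18.1% and 9.0%. The 3 blastocyst and 3 oocyte arrays share no array with the 4 compared here, but they share the fit's estimate of spread. Genes beyond the morula range were picked without that estimate, and their shares were smaller. Of the 1259 higher genes, 128 (10.2%) were higher and 344 (27.3%) lower in blastocysts than in oocytes. Of the 990 lower genes, 437 (44.1%) were higher and 48 (4.85%) lower. The spike-in class was uneven in this second reading too. The control transcripts summed to 146, 13329 and 20166 in the oocytes, against 75.2, 179 and 14601 in the blastocysts. They were thus bright on more oocyte than blastocyst arrays, as they were on the 16-cell array but on only 1 morula. The part of this in the shares was not tested.

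The 16-cell array was at least 2-fold above all 14 other arrays at 714 probe sets, naming 294 genes, and 139 of these were among the 337 genes past the pooled fit. The same count for each other array lay between 4, for morula 1, and 446, for the 2-cell array, and was 395 for morula 3. A close replicate, as morula 1 has in morula 2, keeps this count low. The 4-cell and 8-cell arrays, without a replicate like the 2-cell array, had 215 and 286. The 16-cell array was at least 2-fold below all others at 142 probe sets, naming 73 genes. That count for the other arrays lay between 0, for morula 1, and 338, for the 8-cell array, and was 313 for morula 3. SFRP2 had a signal of 6.74 in the 8-cell array, CD44, a hyaluronan receptor, 25.1, and VIM, the intermediate filament vimentin, 10.0, all far below their 16-cell signals of 7176, 571 and 1959. ID3, by contrast, had 11676, 11573 and 11292 in the oocyte arrays, 9903 at 8 cells and 9399 at 16 cells. MB21D2 ran the opposite way, with signals of 3726 at 8 cells, 30.0 at 16 cells and 5003, 4017 and 1341 in the morulae. A gene that stands apart on the 16-cell array alone has no second array of that stage to set it against.

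**Figure D3:**
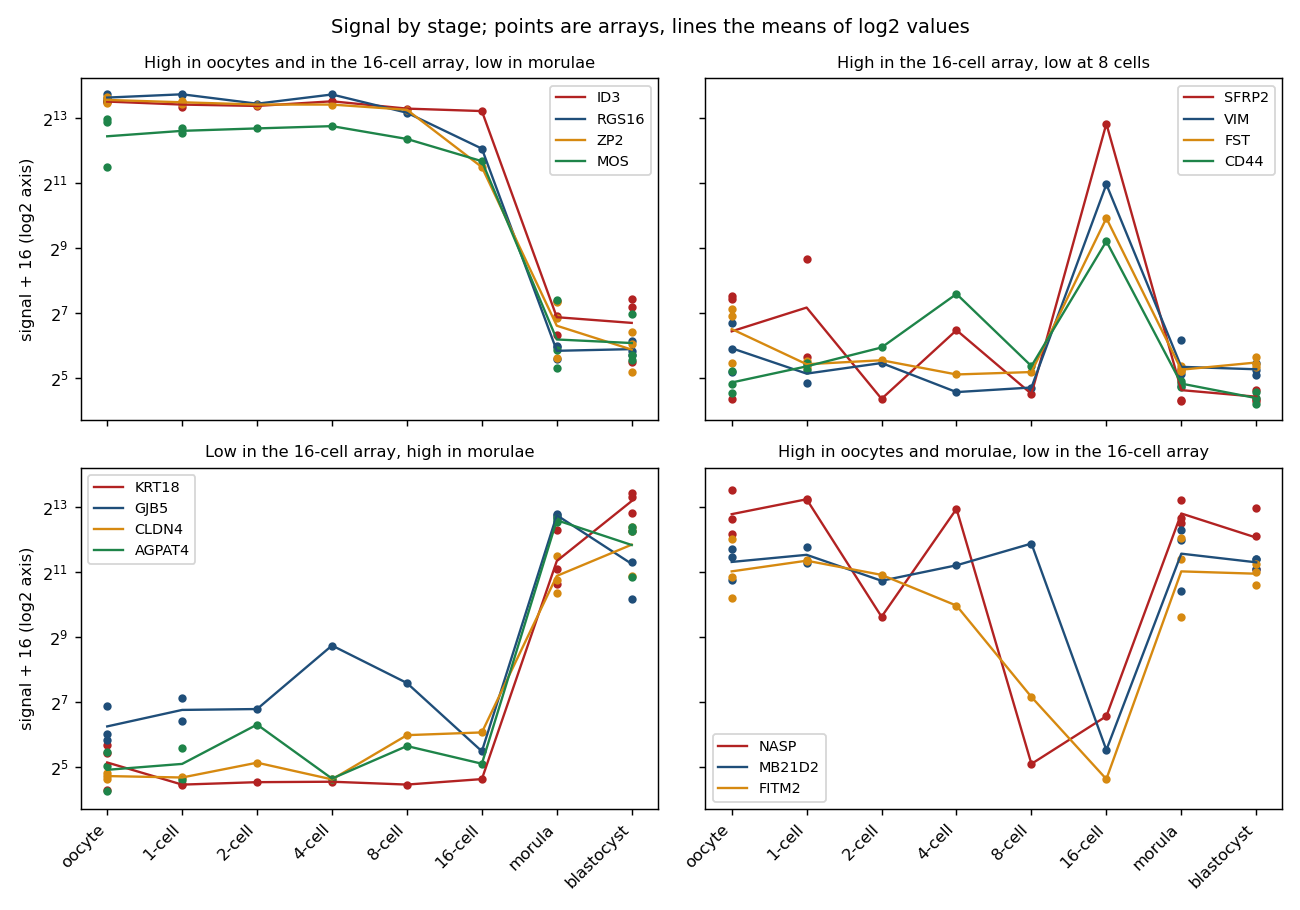
Signal plus 16 (log2 axis) of 15 named genes across the 8 stages, from oocyte to blastocyst, in 4 panels. Points are arrays, lines join the means of log2 values, and the genes were picked for their pattern after their values were seen. ID3, RGS16, ZP2 and MOS are high from oocyte to 16-cell array, SFRP2, VIM, FST and CD44 peak on the 16-cell array, KRT18, GJB5, CLDN4 and AGPAT4 are brightest in morulae or blastocysts, and NASP, MB21D2 and FITM2 are low on the 16-cell array, NASP on the 8-cell array too.

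Oocyte and maternal-effect genes formed the list with the largest share of members higher in the 16-cell array. Of 14 measured 11 were higher (78.6%, against 13.8% of all genes) and none lower (10.8% of all genes), with a median difference of 3.62. With morulae 1 and 2 alone 12 were higher. The pooled fit called 7 of them higher and none lower, and 7, 7 and 8 without morula 1, 2 or 3. MOS, the kinase that holds the egg in meiotic arrest, had 3219.6 in the 16-cell array, against 23.8, 41.4 and 151 in the morula arrays (difference 5.48 ± 0.91, adjusted p = 0.00763). KPNA7, the oocyte importin, had 1350.1 in the 16-cell array, against 32.9, 48.0 and 36.1 in the morula arrays (4.64 ± 0.55, adjusted p = 0.00143). ZP2, a protein of the egg coat, had 2836 in the 16-cell array, against 99.7, 146 and 32.8 in the morula arrays (4.88 ± 0.69, adjusted p = 0.00342). In all 3 the 16-cell array stood above every morula, as the range call requires. ZP2 was brighter still in the oocytes, at 11174, 12718 and 11905. Other members of the list were much closer to the morulae. BMP15, an oocyte growth factor, had 449.6 in the 16-cell array, against 119.9, 179.9 and 176 in the morula arrays, although it had 423, 708 and 4779 in the oocytes. Its companion GDF9 was near the floor at both stages, with 56.2 in the 16-cell array, against 35.2, 44.9 and 41.7 in the morula arrays. ZP3, another coat protein, had 822 in the 16-cell array, against 283, 329.9 and 252 in the morula arrays. BMP15 and ZP3 were beyond the morula range and not past the pooled fit.

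**Figure D4:**
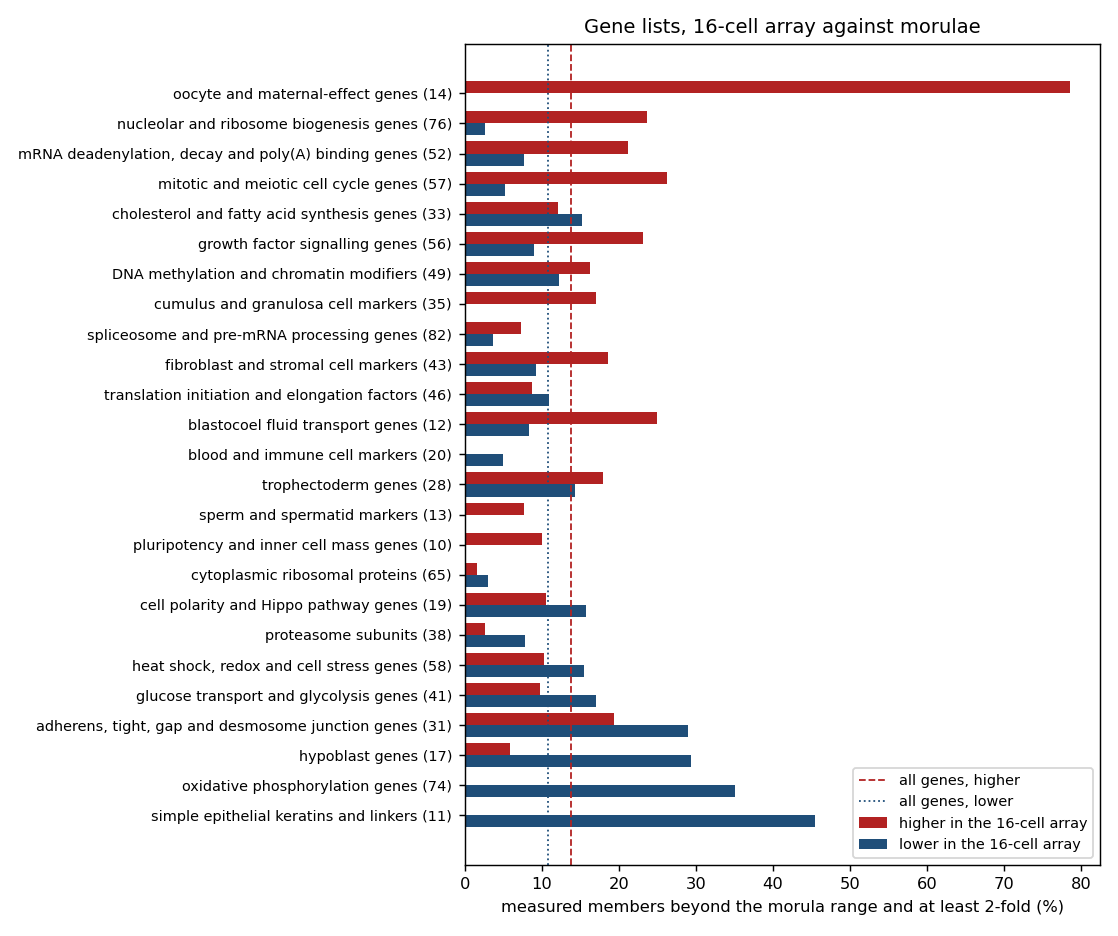
Share of the measured members of each of 25 gene lists (number in brackets) that were higher (red, upper bar) or lower (blue, lower bar) in the 16-cell array beyond the morula range and by at least 2-fold, ordered by median difference. The dashed and dotted lines give the shares over all genes, 13.8% higher and 10.8% lower; oocyte genes reach 78.6% higher, and oxidative phosphorylation genes and simple epithelial keratins and linkers have no member higher.

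Simple epithelial keratins and the proteins that link filaments and membrane were the counterpart, with a median difference of -1.30. Of 11 measured members 5 were lower (45.5%, against 10.8% of all genes) and none higher (13.8% of all genes). With morulae 1 and 2 alone 7 were lower. The pooled fit called 3 lower, and 2 without any one morula. Beside KRT18, described above, KRT7 had 26.2 in the 16-cell array, against 282, 402 and 340.5 in the morula arrays (difference -3.07 ± 0.56, adjusted p = 0.0122). EZR, the microvillus protein ezrin, was abundant at both stages, with 3064 in the 16-cell array, against 9927, 8869.5 and 4915 in the morula arrays. NHERF1, the scaffold that binds ezrin, had 63.7 in the 16-cell array, against 490.0, 488 and 448 in the morula arrays, but its adjusted p of 0.0463 became 0.106, 0.11 and 0.0586 without morula 1, 2 or 3. KRT8, the usual partner of KRT18, was dim on these arrays and had no call, with 40.5 in the 16-cell array, against 142, 46.4 and 22.8 in the morula arrays. It was brighter in blastocysts, at 621, 648 and 354.

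Junction genes split by direction within the list. Of 31 measured members 6 were higher (19.4%, against 13.8% of all genes) and 9 lower (29.0%, against 10.8%). Their median difference was -0.39, and the counts were 7 and 13 with morulae 1 and 2 alone. The pooled fit called 3 higher and 4 lower, and leaving out 1 morula gave 3 to 5 higher and 3 to 6 lower. The 4 lower by the fit were 3 tight junction genes and the connexin GJB5. CLDN4, an epithelial claudin, had 50.9 in the 16-cell array, against 2879, 1303 and 1719 in the morula arrays (difference -4.81 ± 0.67, adjusted p = 0.00327). CGN, the tight junction adaptor cingulin, had 91.2 in the 16-cell array, against 1934, 1123 and 800.1 in the morula arrays (-3.51 ± 0.61, adjusted p = 0.00954). CLDN6 was present at the 16-cell stage but lower, with 800.4 in the 16-cell array, against 13219.9, 11876 and 3392 in the morula arrays. Its adjusted p of 0.0254 rose to 0.0665 without morula 1 and 0.0734 without morula 2. In all 4 the 16-cell array lay below every morula, as the range call requires.

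The 3 junction genes higher by the fit were a cadherin, a connexin and a junctional adhesion molecule. CDH2, the neural and mesenchymal cadherin, had 876 in the 16-cell array, against 27.6, 15.9 and 15 in the morula arrays (difference 4.67 ± 0.65, adjusted p = 0.00327). GJC1, the connexin 45 gene, had 1659 in the 16-cell array, against 32.8, 27.4 and 11.9 in the morula arrays (5.43 ± 0.67, adjusted p = 0.00172). JAM2, an adhesion molecule best known from endothelium, had 1578 in the 16-cell array, against 82.3, 122 and 74.7 in the morula arrays (3.90 ± 0.48, adjusted p = 0.00168), and its second probe set was past the fit the same way. CDH1, the epithelial cadherin of compaction, ran the other way without a call, with 266 in the 16-cell array, against 2849, 1274 and 303 in the morula arrays. Its 16-cell signal lay below every morula, and close to morula 3. GJA1, connexin 43, had 3159 in the 16-cell array, against 120.0, 109 and 391 in the morula arrays, a difference of 4.06 that did not pass the pooled fit (adjusted p = 0.0695, and 0.0416 without morula 3). A second, dim probe set of GJA1 had a difference of -0.90.

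Genes for moving water and ions into the blastocoel, the embryo's cavity, had a median difference of -0.03. Of 12 measured members 3 were higher (25.0%, against 13.8% of all genes) and 1 lower (8.33%, against 10.8%). The counts were 4 and 3 with morulae 1 and 2 alone. AQP3, a channel for water and glycerol, was bright at both stages, with 5799 in the 16-cell array, against 10833, 9382 and 7164 in the morula arrays. ATP1B3, a sodium pump beta subunit, had 3389 in the 16-cell array, against 10313, 7899.5 and 3805 in the morula arrays. Neither AQP3 nor ATP1B3 was called, although both lay below every morula array. A second, dimmer probe set of ATP1B3 was lower beyond the morula range, with a difference of -1.25. AQP11, an intracellular aquaporin, was higher, with 2133 in the 16-cell array, against 182, 103 and 197 in the morula arrays (difference 3.65 ± 0.68, adjusted p = 0.0133). The other pump subunit called, ATP1B1, had 7930.4 in the 16-cell array, against 2389, 1021 and 1186 in the morula arrays, and its adjusted p of 0.04 became 0.104 without morula 2 and 0.0646 without morula 3.

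Of the transcription factors of the first lineages in the fixed set, POU5F1, KLF4, SOX2, TEAD4 and GATA6 had no call. Among 10 measured pluripotency genes 1 was higher (10.0%, against 13.8% of all genes) and none lower (10.8% of all genes). With morulae 1 and 2 alone 1 was higher and 1 lower. POU5F1 had 6199.7 in the 16-cell array, against 8357, 8757 and 8199 in the morula arrays. SOX2 was dimmer, with 325 in the 16-cell array, against 416, 450.1 and 152 in the morula arrays and with 17.3, 392 and 164 in the oocytes. KLF4 had 12885 in the 16-cell array, against 11741, 8598 and 6179.8 in the morula arrays, and in the oocytes it had 1733, 1185 and 1142. The difference of KLF4 was 0.59 ± 0.63 (adjusted p = 0.768), and its 8-cell signal was 8551. MYC was the member called, with 749 in the 16-cell array, against 40.4, 13.8 and 23.4 in the morula arrays (4.24 ± 0.64, adjusted p = 0.00493). TEAD4, the Hippo pathway factor that precedes trophectoderm identity in the mouse, had 1144 in the 16-cell array, against 1169.6, 1537 and 2904 in the morula arrays. GATA6, the hypoblast factor, had 5941 in the 16-cell array, against 10886, 9738 and 8895 in the morula arrays. Neither TEAD4 nor GATA6 was called, although both lay below every morula (differences -0.60 and -0.72). Their oocyte signals were lower, at 20.8, 44.3 and 37.2 for TEAD4 and 202, 116 and 705 for GATA6. With SEs of 0.80 and 0.82 on the log2 scale, a 2-fold difference was not detectable in either. In the list of polarity and Hippo genes, 2 of 19 were higher (10.5%, against 13.8% of all genes) and 3 lower (15.8%, against 10.8%). The counts were 4 and 4 with morulae 1 and 2 alone, and no member was past the pooled fit. Of these, MARK2, a polarity kinase, had the largest difference (3.86) and CCN1, a target of Hippo signalling, the lowest (-3.67).

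Of 17 measured members of the hypoblast list 1 was higher (5.88%, against 13.8% of all genes) and 5 lower (29.4%, against 10.8%). Their median difference was -0.39, and the counts were 2 and 7 with morulae 1 and 2 alone. FN1, fibronectin, had 589 in the 16-cell array, against 8475, 7524 and 7198 in the morula arrays. COL4A1, a basement membrane collagen, had 429.8 in the 16-cell array, against 5129, 5319 and 2006 in the morula arrays. RSPO3, a secreted enhancer of Wnt signalling, had 28.6 in the 16-cell array, against 2036, 3211 and 1919.7 in the morula arrays. All 3 lay far below each morula, with differences of -3.68, -3.10 and -5.71. FN1 and RSPO3 passed the pooled fit (adjusted p = 0.0192 and 0.0413), and neither did without morula 1 (0.0547 and 0.0862) or morula 2 (0.0529 and 0.106), nor RSPO3 without morula 3 (0.0583), with a pseudocount of 1 (0.0609) or with the spike-in class as a block (0.0713). COL4A1 passed when morula 3 was left out (0.0675 with all morulae, 0.0333 without it). A second probe set of FN1 was dim in all 4 arrays. PDGFRA, a receptor of the hypoblast in the mouse, had 106 in the 16-cell array, against 1499, 1444 and 996 in the morula arrays and did not pass (adjusted p = 0.132).

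Trophectoderm genes had 5 of 28 measured members higher (17.9%, against 13.8% of all genes) and 4 lower (14.3%, against 10.8%). Their median difference was -0.09, and the counts were 6 and 5 with morulae 1 and 2 alone. ASCL2, a factor of the placental lineage, was higher, with 737 in the 16-cell array, against 27.2, 46.6 and 23.1 in the morula arrays (difference 3.99 ± 0.44, adjusted p = 0.000994). It was near the floor in the 8-cell array, at 13.8. SSLP1, a secreted protein gene of the cattle trophoblast, was lower, with 91.6 in the 16-cell array, against 1925, 2222 and 489.7 in the morula arrays, and its adjusted p of 0.0331 became 0.0878 without morula 1 and 0.0859 without morula 2. DAB2, an endocytic adaptor, had 1821 in the 16-cell array, against 8489.5, 7638 and 3219 in the morula arrays. TFAP2A had 539 in the 16-cell array, against 35.9, 28.8 and 11.6 in the morula arrays. Neither DAB2 (adjusted p = 0.203) nor TFAP2A (0.0602) passed the pooled fit, although DAB2 did without morula 3 (0.0476) and TFAP2A with median centring (0.0288) or the spike-in class as a block (0.0136).

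Oxidative phosphorylation genes were lower as a list. Of 74 measured members 26 were lower beyond the morula range (35.1%, against 10.8% of all genes) and none was higher, while 67 had a negative difference and the median was -0.77. With morulae 1 and 2 alone 34 were lower. The members came from most complexes of the chain: 14 of 37 of complex I, which takes electrons from NADH, 7 of 9 of complex III, 2 of 9 of complex IV and 3 of 15 of ATP synthase were lower, and none of 4 of complex II. With morulae 1 and 2 alone these counts were 15, 8, 3, 5 and 3. The median differences were -0.83, -1.45, -0.61, -0.50 and -0.71.

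ATP5F1A, the alpha subunit of ATP synthase, showed the spread behind these counts, with 1081 in the 16-cell array, against 13452, 12538 and 3058 in the morula arrays. A second probe set of ATP5F1A was dim in all 4 arrays. NDUFS4, a complex I subunit, had 482 in the 16-cell array, against 4655, 4221 and 2459 in the morula arrays. NDUFS7, which carries an iron-sulphur cluster of complex I, had 59.5 in the 16-cell array, against 2306, 2582 and 756 in the morula arrays. In these 3 genes morula 3 lay nearest the 16-cell array. Single members rarely passed the pooled fit: 4 did, all lower, but none did without morula 1 or without morula 2, and 5 did without morula 3. NDUFS7 had an adjusted p of 0.0362 with all morulae, and 0.0932 and 0.0974 without morula 1 and morula 2, 0.0503 with quantile normalization and 0.0627 with the spike-in class as a block. ATP5F1A and NDUFS4 had 0.16 and 0.0531 with all morulae, and 0.0425 and 0.0422 without morula 3. Fewer members passed with the spike-in class as a block, and more without the arrays numbered 3. The list's median stayed negative against morula 3 alone, at -0.59, where 22 members were at least 2-fold lower. Over all 9155 genes, 1304 were at least 2-fold lower and 2168 higher against morula 3 alone, with a median of 0.09. The cytoplasmic ribosomal proteins had 1 of 65 higher (1.54%, against 13.8% of all genes) and 2 lower (3.08%, against 10.8%). Their median was -0.15, and the counts were 2 and 7 with morulae 1 and 2 alone. The one higher was RPL37, of the large subunit, with 789 in the 16-cell array, against 44.6, 15.3 and 5.77 in the morula arrays. Its adjusted p of 0.0379 became 0.0508, 0.0937 and 0.0685 without morula 1, 2 or 3.

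Of 41 measured genes of glucose transport and glycolysis, whose products feed the chain, 4 were higher (9.76%, against 13.8% of all genes) and 7 lower (17.1%, against 10.8%), with a median of -0.38, and 4 and 11 with morulae 1 and 2 alone. PDHB, a subunit of the pyruvate dehydrogenase that links glycolysis to mitochondria, had 252 in the 16-cell array, against 2403, 2018 and 2038 in the morula arrays (difference -3.01 ± 0.46, adjusted p = 0.00488). PFKP, a phosphofructokinase, had 1056 in the 16-cell array, against 53.8, 33.7 and 52.4 in the morula arrays (4.11 ± 0.50, adjusted p = 0.00155). SLC16A3, a lactate transporter, had 292 in the 16-cell array, against 13.7, 15.2 and 19.7 in the morula arrays (3.26 ± 0.52, adjusted p = 0.00658). PFKP and SLC16A3 were higher in the 16-cell array than in each morula and PDHB lower. Other probe sets of PDHB and SLC16A3 were dim and had no call. SOD2, the superoxide dismutase of mitochondria, had 584 in the 16-cell array, against 6891, 4670.4 and 5535 in the morula arrays. It passed the pooled fit with all morulae (adjusted p = 0.0296) but not without morula 1 (0.0787) or morula 2 (0.0611). The list of stress genes that holds it had 6 of 58 higher (10.3%, against 13.8% of all genes) and 9 lower (15.5%, against 10.8%). With morulae 1 and 2 alone this list had 9 and 21. Its median was -0.38, and 0.12 against morula 3 alone.

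**Figure D5:**
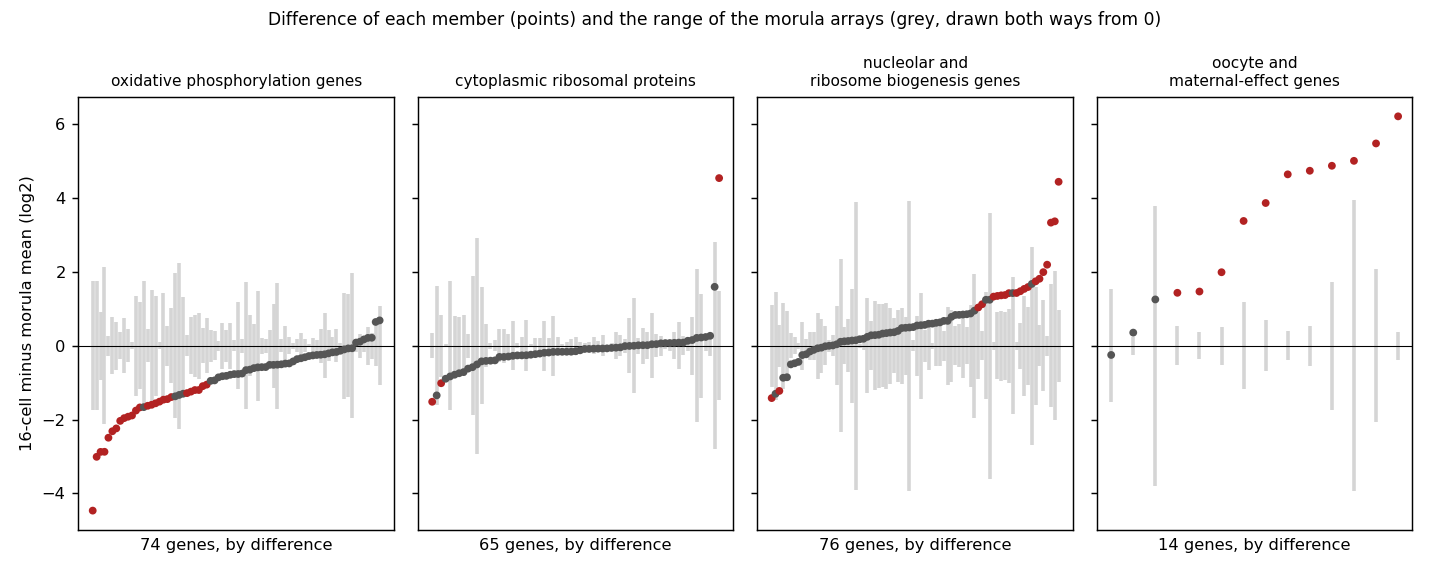
Difference of the 16-cell array from the morula mean (log2) for each measured member of 4 lists, ordered by size. Red points are beyond the morula range and at least 2-fold, grey points are not, and grey bars show the range of the 3 morula arrays drawn both ways from 0; 67 of 74 oxidative phosphorylation genes lie below 0, the 65 ribosomal proteins have a median of -0.15 with RPL37 at 4.54, and 13 of 14 oocyte genes lie above it.

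Genes that build ribosomes in the nucleolus leaned the opposite way to the respiratory chain. Of 76 measured members 18 were higher (23.7%, against 13.8% of all genes) and 2 lower (2.63%, against 10.8%). Their median was 0.53, and the counts were 22 and 6 with morulae 1 and 2 alone. UTP6, a factor of small subunit processing, had 559 in the 16-cell array, against 16.6, 17.4 and 1.00 in the morula arrays (difference 4.44 ± 0.72, adjusted p = 0.00719). DDX18, a nucleolar helicase, had 2380.1 in the 16-cell array, against 286, 392 and 84.9 in the morula arrays. POLR1H, a subunit of RNA polymerase I, had 1965 in the 16-cell array, against 406, 382 and 465 in the morula arrays. All 3 were above every morula, and UTP6 passed the pooled fit, though not with a pseudocount of 1 (0.0887). DDX18 did not (adjusted p = 0.0686), but did with the spike-in class as a block (0.00783), a pseudocount of 64 (0.0336) or median centring (0.0354), and POLR1H (0.274) did without the arrays numbered 3 (0.00989), as DDX18 did (0.03). The fit called 2 members of the list higher, a smaller share than over all genes. Translation factors had 4 of 46 higher (8.7%, against 13.8% of all genes) and 5 lower (10.9%, against 10.8%) and a median of -0.01, and 5 and 8 with morulae 1 and 2 alone. Spliceosome genes had 6 of 82 higher (7.32%, against 13.8%) and 3 lower (3.66%, against 10.8%), and 12 and 6 with morulae 1 and 2 alone. Proteasome subunits had 1 of 38 higher (2.63%, against 13.8%) and 3 lower (7.89%, against 10.8%), and 3 and 7 with morulae 1 and 2 alone. No spliceosome or proteasome gene was past the pooled fit.

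Cell cycle genes had 15 of 57 measured members higher (26.3%, against 13.8% of all genes) and 3 lower (5.26%, against 10.8%). The median was 0.38, and the counts were 17 and 7 with morulae 1 and 2 alone. RB1 and CDKN2C led these genes, and both restrain division. CDKN1A, the kinase inhibitor p21, had 2245 in the 16-cell array, against 409, 124 and 109 in the morula arrays. GADD45A, a gene induced by DNA damage, had 684 in the 16-cell array, against 33.0, 27.5 and 129 in the morula arrays. CDKN1A did not pass the pooled fit (adjusted p = 0.0695), but did without morula 1 (0.0481), with a pseudocount of 64 (0.0461) and with median centring (0.045). GADD45A did (0.0255), but not without morula 1 (0.0719) or morula 2 (0.0713), nor with quantile normalization (0.064). BUB1, of the spindle checkpoint, was lower beyond the morula range, with 508 in the 16-cell array, against 1572, 1526 and 3019.8 in the morula arrays. Its difference of -1.90 ± 1.06 did not pass the pooled fit, and a second, dim probe set had -0.16. Morula 3 was the lowest morula in RB1, CDKN2C and CDKN1A and the highest in GADD45A and BUB1.

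Genes of mRNA tail shortening and decay had 11 of 52 higher (21.2%, against 13.8% of all genes) and 4 lower (7.69%, against 10.8%). Their median was 0.51, and the counts were 12 and 7 with morulae 1 and 2 alone. Of the list, only TUT7 was past the pooled fit, a smaller share than over all genes. TUT7, an enzyme that adds uridines to mRNA tails and marks maternal transcripts for decay in the mouse, had 3613 in the 16-cell array, against 52.5, 123 and 13.3 in the morula arrays (difference 5.79 ± 0.97, adjusted p = 0.00821, and 0.06 with a pseudocount of 1). TOB1, an adaptor of the deadenylase, had 2463 in the 16-cell array, against 235, 96.6 and 402 in the morula arrays. CNOT6L, a catalytic subunit of the same complex, had 536 in the 16-cell array, against 74.8, 103 and 1.90 in the morula arrays. TOB1 and CNOT6L did not pass the pooled fit (adjusted p = 0.0793 and 0.149), but a second probe set of TOB1 did, with a difference of 3.12. CNOT6L passed with the spike-in class as a block (0.0415), and both did without the arrays numbered 3 (0.00674 and 0.0112). Chromatin modifiers had 8 of 49 higher (16.3%) and 6 lower (12.2%), near the 13.8% and 10.8% of all genes. The counts were 10 and 11 with morulae 1 and 2 alone. The pooled fit called EED and SMARCB1 lower and no member higher. EED had 506 in the 16-cell array, against 4714, 3618 and 3998 in the morula arrays, but its other probe sets went both ways. CHAF1A was higher beyond the morula range and did not pass the fit. It had 3423 in the 16-cell array, against 828, 952 and 1378 in the morula arrays. RNF2, a Polycomb ubiquitin ligase, had 1693 in the 16-cell array, against 108, 191 and 15.2 in the morula arrays (adjusted p = 0.0514). CHAF1B, a subunit of the replication chaperone of histones, had 136 in the 16-cell array, against 651, 1239 and 3903 in the morula arrays (adjusted p = 0.0909). Their morula arrays spread over 2.7 and 2.6 on the log2 scale, and neither passed. RNF2 passed without morula 2 (0.044), with a pseudocount of 64 or median centring (0.0321 in both), without the lowest probe sets (0.0428) and with the spike-in class as a block (0.0121), and both genes did without the arrays numbered 3 (0.0305 and 0.02).

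Growth factor signalling genes had 13 of 56 measured members higher (23.2%, against 13.8% of all genes) and 5 lower (8.93%, against 10.8%). The counts were 14 and 6 with morulae 1 and 2 alone. The pooled fit called 8 higher and 1 lower (6, 6 and 9 higher without morula 1, 2 or 3), where 3.68% and 2.17% of all genes were called. LEF1, a transcription factor of Wnt signalling, had 2402 in the 16-cell array, against 53.6, 53.3 and 40.0 in the morula arrays (difference 5.23 ± 0.47, adjusted p = 0.000361). It was abundant in the oocytes, at 4933, 5295 and 3403. FGF2, a fibroblast growth factor, had 3747 in the 16-cell array, against 118, 85.1 and 213 in the morula arrays (4.69 ± 0.90, adjusted p = 0.0157), while its second probe set was dim in all 4 arrays. FST, which binds activin, had 945 in the 16-cell array, against 24.9, 20.8 and 20.7 in the morula arrays (4.66 ± 0.56, adjusted p = 0.0015). AXIN2, a feedback inhibitor that Wnt signalling induces, was the member lower by the fit, with 201 in the 16-cell array, against 1699, 1483 and 2956 in the morula arrays (-3.18 ± 0.65, adjusted p = 0.0202). DKK1, a Wnt antagonist, had 4492 in the 16-cell array, against 274, 279.7 and 30.4 in the morula arrays and did not pass (adjusted p = 0.146). Of the Wnt pathway genes named here, the antagonist SFRP2 and LEF1 were higher in the 16-cell array by the fit, and AXIN2 and RSPO3 lower.

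Genes that mark cells other than blastomeres were also examined, since cumulus cells surround the oocyte and are removed by vortexing. Of 43 measured fibroblast and stromal markers 8 were higher (18.6%, against 13.8% of all genes) and 4 lower (9.3%, against 10.8%). Their median was 0.04, and the counts were 9 and 3 with morulae 1 and 2 alone. The pooled fit called 7 higher, and 5, 5 and 8 without morula 1, 2 or 3. Their summed signal was 15127 in the 16-cell array, against 9852, 9505 and 13127 in the morulae. VIM had 1959 in the 16-cell array, against 10.7, 18.4 and 56.3 in the morula arrays (difference 5.61 ± 0.64, adjusted p = 0.00113). COL1A2, a chain of type I collagen, had 2432 in the 16-cell array, against 136, 117 and 64.1 in the morula arrays (4.38 ± 0.69, adjusted p = 0.00577). LUM, the proteoglycan lumican, had 1397 in the 16-cell array, against 15.3, 5.78 and 256 in the morula arrays (4.63 ± 1.18, adjusted p = 0.0537, and 0.00208 without morula 3). THBS2, a thrombospondin, had 653 in the 16-cell array, against 35.9, 1.2 and 9.51 in the morula arrays (difference 4.56). But COL1A1, the partner chain of COL1A2, was at the foot of the scale in all 4 arrays. It had 8.43 in the 16-cell array, against 7.31, 3.70 and 18.9 in the morula arrays. COL3A1 was too, with 25.9 in the 16-cell array, against 21.1, 16.8 and 13.5 in the morula arrays. DCN, decorin, was high in 1 array only, morula 3, with 80.1 in the 16-cell array, against 10.3, 35.9 and 1324 in the morula arrays. A second probe set of COL1A2 was dim in the 16-cell array and had a difference of -0.86. MGP, a matrix protein of the same list, was lower, with 181 in the 16-cell array, against 1238, 1275 and 1327 in the morula arrays (-2.72 ± 0.52, adjusted p = 0.0158).

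Of 35 measured cumulus and granulosa markers 6 were higher (17.1%, against 13.8% of all genes) and none lower (10.8% of all genes). Their median was 0.08, and the counts were 8 and 1 with morulae 1 and 2 alone. The pooled fit called 4 higher, and 4, 4 and 5 without morula 1, 2 or 3. Their summed signal was 25282 in the 16-cell array, against 30102, 28748 and 29923 in the morulae. CD44 had 571 in the 16-cell array, against 14.0, 12.5 and 10.5 in the morula arrays (difference 4.38 ± 0.32, adjusted p = 0.000103). HSD3B1, an enzyme of steroid synthesis, had 780.0 in the 16-cell array, against 44.0, 23.3 and 39.0 in the morula arrays (3.97 ± 0.60, adjusted p = 0.00476). These 2 genes and FST were higher than in any morula. So was VCAN, a matrix proteoglycan, with 177 in the 16-cell array, against 13.3, 11.6 and 13.7 in the morula arrays (difference 2.75). VCAN was brighter still in the oocytes, at 1065, 713 and 1396. HSD3B1 was brighter still in the blastocysts, at 1458, 3867 and 2148. But TNFAIP6 and PTX3, which expanded cumulus secretes, were near the floor. TNFAIP6 had 12.9 in the 16-cell array, against 16.6, 30.6 and 11.3 in the morula arrays. PTX3 had 12.2 in the 16-cell array, against 9.39, 16.2 and 15.2 in the morula arrays. Blood and immune markers had none of 20 higher (13.8% of all genes were) and 1 lower (5.0%, against 10.8%). The counts of these markers were 1 and 3 with morulae 1 and 2 alone. Of them the pooled fit called 1 higher, and none without morula 1, 2 or 3: VWF, named after its values were seen, near the floor with 19.3 in the 16-cell array, against at most 5.50 in the morula arrays. The sums of this list were 1818 in the 16-cell array and 2586, 2834 and 1931 in the morulae. Sperm markers had 1 of 13 higher (7.69%, against 13.8% of all genes) and none lower (10.8% of all genes). The counts were 1 and 1 with morulae 1 and 2 alone. The sums of the sperm markers were 912 in the 16-cell array and 1291, 1734 and 2162 in the morulae. The part of other cell types in the genes that were high on the 16-cell array was not tested.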

How the data were processed

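The authors deposited 1 table of intensity values on a linear scale for 24128 probe sets on 15 arrays. RNA was amplified in 3 rounds and labelled with biotin, per the labels' protocols. How probes were summarised and arrays scaled is not given in the sources used here, and no detection call was used, so low signals have no stated background limit. The number of arrays limits the precision. The members and gene lists were chosen with earlier results of these data known.

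The 112 control probe sets were left out and values were analysed as log2(intensity + 16) without further normalization. Of 24016 probe sets 13292 had 1 gene symbol, 86 had several, which were left unnamed, and 10638 had none. Symbols were updated through RefSeq (ARS-UCD2.0, 13263 matched). The probe set with the highest mean over 15 arrays stood for each of 9155 genes. The pooled fit used limma 3.58.1 in R 4.3.3 with lmFit, a mean per stage, and eBayes with a trend, with p-values adjusted by Benjamini and Hochberg across the 24016 probe sets at 0.05. The single arrays add nothing to its spread, and its p-values reflect only how these arrays vary. Exact permutation of 1 array against 3 cannot give a p below 0.25. The procedure was tested on simulated data. Named genes were the 15 largest differences per direction beyond the morula range, up to 4 members per list and direction (or the 2 brightest), and a fixed set. The text gives only some of them. Alternatives were pseudocounts of 1 and 64, quantile normalization, median centring, leaving out the lowest 33.3% of probe sets, leaving out each morula array, stricter range rules, morula 3 alone, all probe sets of a gene averaged, and, for the fit, no trend, leaving out the arrays numbered 3, the 4 arrays alone and the spike-in class as a block. Plots used matplotlib 3.10.9 (Python 3.11.15).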

Additional observations from a re-analysis of the deposited data

Results flagged for a closer look

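The control transcripts added to RNA before amplification were left out of the probe sets compared. They entered only as the spike-in class, a block in an alternative fit. They summed to a 3′ signal of 22351.2 in the 16-cell array, against 94.2, 337 and 20846 in morulae 1, 2 and 3. They were flagged as a signal in data outside the main measurement.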

How the results depend on the processing

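Over probe sets, at a difference of at least 4-fold the range rule gave 1522 higher and 999 lower. Against morula 3 alone, with no range, 4509 were at least 2-fold higher and 3074 at least 2-fold lower. Leaving out 1 morula array gave 3008 to 3595 higher and 2116 to 3721 lower by the range rule, and 572 to 904 higher and 205 to 598 lower by the pooled fit, where without morula 3 alone 3721 and 598 were lower. The fit called 539 higher with a pseudocount of 1, and 1919 higher and 1772 lower without the arrays numbered 3. With the 4 arrays alone limma called 0 and 0, and 3853 passed an unadjusted p under 0.05. Quantile normalization turned the balance of genes to 1110 higher and 1124 lower, against 1259 and 990 without it, as did leaving out morula 3, with 1625 and 1692. The causes were not tested beyond what the fewer arrays or the stricter rule impose. Of the 65 genes given above under the naming rule that were past the pooled fit, 53 to 65 were still past it under each alternative fit to all stages, 54, 53 and 60 of them without morula 1, 2 or 3, and 0 with the 4 arrays alone. All 65 kept their direction under these alternatives. Genes picked for a large difference on the same arrays are almost bound to do so, so this is no support. THBS2, VCAN, EED and SMARCB1 are not counted among the 65. Leaving out the arrays numbered 3 also put BUB1, CCN1, CDH1, DKK1, EZR, GJA1, PDGFRA and TRIM2 past the fit. The probe set used was called and another was not in BMP15, BUB1, CLDN6, CNOT6L, DAB2, DKK1, MARK2, MGP and PDGFRA. No paired analysis was possible because the 16-cell stage has 1 array and its title has no number. The 16-cell stage has no replicate, the scaling and the embryos per array are unknown, and near the floor of the scale the size of a fold depends on the pseudocount.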

Other observations

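Genes induced by interferon, a set put together after the values had been seen, from which 4 genes first added because they were high were taken out again, were high on the 16-cell array in part. ISG15, a ubiquitin-like modifier, had 2182 in the 16-cell array, against 17.1, 20.0 and 24.5 in the morula arrays, and MX1, an antiviral GTPase, had 1399 in the 16-cell array, against 6.29, 6.03 and 3.19 in the morula arrays. IFI6 had 915 in the 16-cell array, against 2.24, 1.00 and 65.7 in the morula arrays, and EIF2AK2, the kinase PKR, had 439 in the 16-cell array, against 9.46, 5.45 and 15.4 in the morula arrays. In all 4 genes each morula was far lower. Of 18 measured members 8 were higher beyond the morula range (13.8% of all genes were) and none lower (10.8%), 6 were past the pooled fit as higher (3.68%), and 5 were at least 2-fold above all 14 other arrays, as were 294 of all 9155 genes. The median of the set was 0.39, beside 0.03 over all genes. RSAD2 and CXCL10, which interferon also induces, had no call, RSAD2 with 27.0 in the 16-cell array, against 23.4, 28.7 and 15.5 in the morula arrays and CXCL10 with 16.6 in the 16-cell array, against 9.84, 9.07 and 6.58 in the morula arrays. In oocyte array 3 ISG15 had 1517, against 156 and 219 in oocyte arrays 1 and 2. A second probe set of EIF2AK2 had no call.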
